A study of Homo sapiens with 6 samples.

Results

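Mitochondrial ribosomal proteins were followed in A2780 cells after treatment with recombinant human CRMP2 (r-CRMP2). The 78 genes were the protein-coding rows of the count files whose symbol begins with MRPL or MRPS and a number, out of 44591 gene rows. Of these, 49 were MRPL genes, named for the large subunit of the mitochondrial ribosome, and 29 were MRPS genes, named for the small subunit. Another 41 rows with such a symbol, mostly pseudogenes, were not protein coding and were left out.

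A2780 is an established human ovarian cancer cell line. The untreated group (3 libraries) was wild-type A2780 cells grown in DMEM with fetal bovine serum, and the r-CRMP2 group (3 libraries) was the same wild-type line after 48 h with 40 ng/ml r-CRMP2 added to that medium. CRMP2 (DPYSL2) is a cytosolic protein known for its part in microtubule assembly in neurons, and the study added it to ask how the secreted protein acts on ovarian cancer cells. All 6 libraries came from 1 cell line, and the labels number 3 replicates in each group without saying whether they were separate cultures, so the p-values measure the spread between these libraries.

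The mitochondrial ribosome translates the mRNAs of the mitochondrial genome, which encode core subunits of the respiratory chain and the ATP synthase. All of its proteins are encoded in the nucleus, made in the cytosol and imported, while its rRNAs are transcribed inside the organelle. Its small subunit binds the mRNA and reads the codons, and its large subunit forms the peptide bonds and releases the chain through an exit tunnel next to the inner membrane.

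Between 21888530 and 25711353 reads were counted in a library. r-CRMP2 replicate 3 stood apart in having 22438 genes with a count, against 25152 to 26302 in the other libraries. Of the 7 markers fixed for the label, EPCAM, KRT8, KRT18, PAX8 and MUC16 passed the filter. WT1 and CDH1 were under 1 TPM in all 6 libraries. The summed level of the 7 was 3321 to 3429 TPM in untreated and 2819 to 3071 TPM in r-CRMP2 libraries. Most of it was KRT8 (1061 to 1393 TPM) and KRT18 (1750 to 2024 TPM), while EPCAM, PAX8 and MUC16 had at most 7.39, 2.65 and 2.81 TPM. Of 10 fibroblast markers, only FAP was under 1 TPM in every library. The summed level of the list was 278 to 318 TPM in untreated libraries and 197 to 212 TPM in r-CRMP2 libraries. COL1A1 held the largest part, at 94.2 to 191 TPM. COL1A1, COL1A2, COL3A1, ACTA2, POSTN and THY1 were above EPCAM, PAX8 and MUC16 in every library. The part of these differences in the results below was not tested.

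Every one of the 78 genes was expressed, with at least 33 counts in each library and at most 5028, and all passed the filter that left 16222 genes for testing. After TMM normalization, a scaling that sets the bulk of genes level between libraries, 14 of the 78 were higher and 27 lower with r-CRMP2 (adjusted p-value under 0.05, edgeR's quasi-likelihood test with the Benjamini-Hochberg method). These were 17.9% and 34.6% of the members, or 52.6% together, where 28.2% of all genes tested were higher and 30.1% lower, 58.2% together. The other 37 genes did not pass the test. The normalized values of the groups did not overlap in 17 genes that were above and 25 that were below the untreated libraries, where 30.9% and 33.3% of all genes tested had no overlap in these directions and 64.2% in either. The changes were small: none of the 78 passed a log2 fold change of 1 in either direction, against 5.12% of all genes upward and 8.86% downward, and the values ran from -0.86 (MRPL1) to 0.76 (MRPS6). Their median was -0.01 and that of all genes tested was -0.03, so the family as a whole sat at the centre of the distribution while single members moved to either side. In bulk RNA, fewer transcripts per cell and a change in the mix of cells cannot be told apart.

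The scaling set the direction of the weaker changes. With library size alone, all genes shifted downward to a median of -0.34, and the median of the 78 genes shifted alike, to -0.32. On that scale 2 members were higher (MRPL17 and MRPS6) and 58 lower, where 13.4% and 52.1% of all genes were. Higher and lower are therefore meant on the TMM scale, relative to the bulk of genes. Of the 14 genes that were higher, 12 lost their call with library size alone, and none of the 27 lower genes did.

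**Figure D1:**
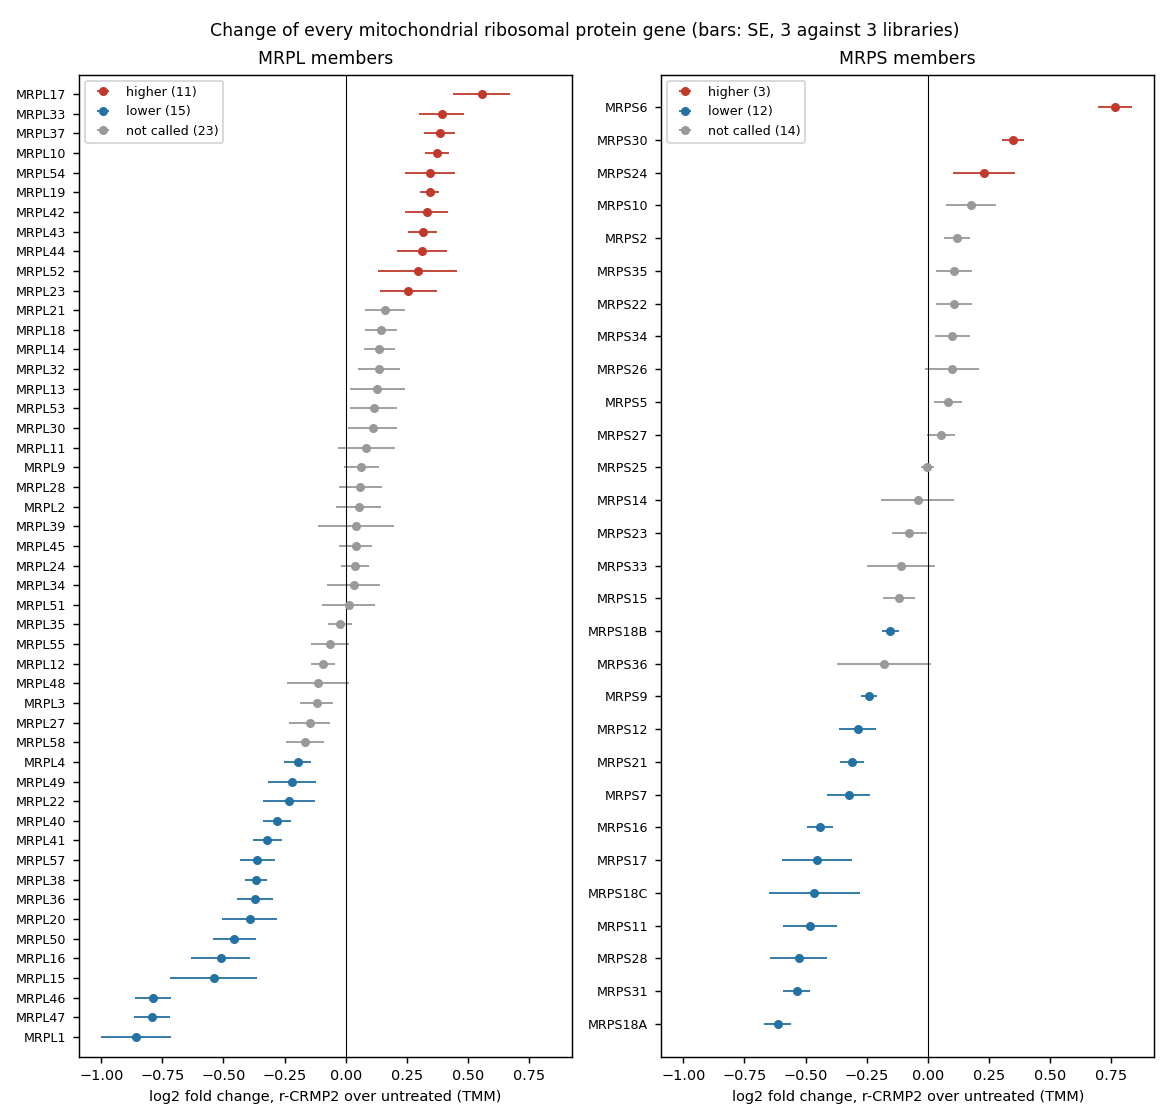
Log2 fold change (x axis, r-CRMP2 over untreated, TMM) of each of the 78 genes, with MRPL genes on the left and MRPS genes on the right. Points are edgeR estimates, bars are standard errors from 3 against 3 libraries, and colours give the call at an adjusted p-value of 0.05; 11 MRPL and 3 MRPS genes were higher, and 15 MRPL and 12 MRPS genes lower.

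Of the 49 MRPL genes, 11 were higher and 15 lower (22.4% and 30.6%, against 28.2% and 30.1% of all genes tested). Their median log2 fold change of 0.04 turned to -0.02 without r-CRMP2 replicate 2. The deepest fall was in MRPL1 (chromosome 4, 78783805 to 78873944 in the deposited hg19 coordinates), a protein of the mobile L1 stalk beside the exit site of tRNAs. It had 3.13, 3.14 and 3.73 CPM in the untreated libraries and 1.54, 1.92 and 2.05 CPM in the r-CRMP2 libraries. The groups did not overlap, but MRPL1 was also the gene with the lowest level of the family, and the r-CRMP2 libraries held few reads for it. It went from 3.33 ± 0.344 to 1.84 ± 0.261 CPM (SD, n = 3 each), a log2 fold change of -0.86 (SE 0.14, edgeR adjusted p = 0.0017). Here SE is the standard error from the spread between libraries, and CPM are counts scaled to a common library total.

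MRPL47 (chromosome 3, 179306253 to 179322434), which sits at the mouth of the exit tunnel, had 22.1, 20.3 and 23.7 CPM in the untreated libraries and 12.3, 12.6 and 13.3 CPM in the r-CRMP2 libraries. All 3 r-CRMP2 libraries lay far below the lowest untreated one. It fell from 22.02 ± 1.70 to 12.7 ± 0.543 CPM (SD, n = 3 each), a log2 fold change of -0.79 (SE 0.07, edgeR adjusted p = 7.35e-07).

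MRPL46 (chromosome 15, 89002709 to 89010633), a mitochondria-specific protein of the central protuberance, where the large subunit meets the small one, had 19.8, 19.4 and 19.2 CPM in the untreated libraries and 11.0, 12.4 and 10.4 CPM in the r-CRMP2 libraries. The untreated libraries were nearly equal, and the r-CRMP2 libraries formed a separate, lower set. It fell from 19.5 ± 0.327 to 11.3 ± 1.03 CPM (SD, n = 3 each), a log2 fold change of -0.79 (SE 0.08, edgeR adjusted p = 1.24e-06).

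MRPL15 (chromosome 8, 55047781 to 55061074), a conserved protein of the subunit core, had 15.4, 17.97 and 21.3 CPM in the untreated libraries and 12.3, 14.5 and 10.97 CPM in the r-CRMP2 libraries. Its untreated libraries were spread widely, and the lowest of them was close to the highest r-CRMP2 library without overlapping it. The log2 fold change of -0.54 (SE 0.18, edgeR adjusted p = 0.000971) had the largest standard error among the named genes of the large subunit. The other 11 lower MRPL genes had log2 fold changes between -0.51 (MRPL16) and -0.20 (MRPL4). The call of MRPL4 was lost without untreated replicate 3 or r-CRMP2 replicate 1 or 3 (edgeR adjusted p between 0.0514 and 0.0925).

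Among the genes that were higher, MRPL17 (chromosome 11, 6701616 to 6704632), a conserved protein near the tunnel exit, rose the most in the large subunit. It had 102, 86.3 and 83.3 CPM in the untreated libraries and 124, 146 and 130.2 CPM in the r-CRMP2 libraries, with the groups apart and untreated replicate 1 nearest to the treated libraries. It rose from 90.6 ± 10.2 to 133 ± 11.7 CPM (SD, n = 3 each), a log2 fold change of 0.56 (SE 0.12, edgeR adjusted p = 7.29e-06), and it was the only MRPL gene still called higher with library size alone (log2 fold change 0.25).

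MRPL33 (chromosome 2, 27994584 to 28002608), a small conserved protein, had 24.99, 22.1 and 24.5 CPM in the untreated libraries and 29.1, 34.7 and 30.4 CPM in the r-CRMP2 libraries. Its groups did not overlap, and the log2 fold change of 0.39 (SE 0.09, edgeR adjusted p = 0.000667) became 0.08 with library size alone.

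MRPL37 (chromosome 1, 54665840 to 54691162), a mitochondria-specific protein and among the most abundant mRNAs of the family, had 165, 165 and 166 CPM in the untreated libraries and 198, 230.0 and 219 CPM in the r-CRMP2 libraries. The untreated libraries were almost identical and every r-CRMP2 library was above them. It rose from 165 ± 0.220 to 216 ± 16.1 CPM (SD, n = 3 each), a log2 fold change of 0.38 (SE 0.06, edgeR adjusted p = 4.36e-05). Its 3' part shares 59 bases with SSBP3 on the other strand, which had a log2 fold change of 0.29, and reads there could not be assigned by strand.

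MRPL10 (chromosome 17, 45900638 to 45908907), which anchors the L7/L12 stalk that recruits the elongation factors, had 61.7, 59.6 and 62.4 CPM in the untreated libraries and 75.97, 84.1 and 77.9 CPM in the r-CRMP2 libraries. The groups did not overlap, and the increase was a log2 fold change of 0.37 (SE 0.05, edgeR adjusted p = 6.75e-05). The deposited TPM of MRPL10, which are relative to the whole library, were 74.8 ± 1.54 in untreated and 77.2 ± 0.629 in r-CRMP2 libraries (SD, n = 3 each), so on that scale the gain was small. The other higher MRPL genes were MRPL19, MRPL23, MRPL42, MRPL43, MRPL44, MRPL52 and MRPL54, with log2 fold changes between 0.26 and 0.35. Of these, MRPL52 lost its call without untreated replicate 1 or 2 or r-CRMP2 replicate 2 or 3 (edgeR adjusted p between 0.109 and 0.171).

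Of the 29 MRPS genes, 3 were higher and 12 lower (10.3% and 41.4%, against 28.2% and 30.1% of all genes tested). Their median log2 fold change was -0.11. The difference between the subunits was not tested. MRPS18A (chromosome 6, 43638934 to 43655549) fell the most, with 31.03, 33.5 and 29.8 CPM in the untreated libraries and 20.5, 21.1 and 19.9 CPM in the r-CRMP2 libraries. The libraries of each group were close together and far from those of the other. It fell from 31.4 ± 1.89 to 20.5 ± 0.594 CPM (SD, n = 3 each), a log2 fold change of -0.61 (SE 0.05, edgeR adjusted p = 2.56e-06). Despite its name, the protein occupies a place in the large subunit in structures of the human mitochondrial ribosome.

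Its paralogs MRPS18B and MRPS18C, which are found in the small subunit, were lower too, but their calls did not hold in every alternative setting. MRPS18C (chromosome 4, 84377085 to 84382876) had 11.5, 9.90 and 14.7 CPM in the untreated libraries and 9.36, 9.20 and 7.71 CPM in the r-CRMP2 libraries. The highest treated library was just under the lowest untreated one, and the log2 fold change of -0.46 (SE 0.19, edgeR adjusted p = 0.0081) missed the threshold without untreated replicate 3 (log2 fold change -0.29, edgeR adjusted p = 0.0858) or without r-CRMP2 replicate 3 (log2 fold change -0.37, edgeR adjusted p = 0.0556). MRPS18C shares 785 bases of its span with FAM175A on the other strand, which did not pass the test (-0.09). MRPS18B (chromosome 6, 30585486 to 30594174), the most abundant of the trio, had 104, 111 and 109 CPM in the untreated libraries and 96.4, 99.6 and 94.7 CPM in the r-CRMP2 libraries. Its log2 fold change of -0.15 (SE 0.04, edgeR adjusted p = 0.0394) stood at the edge of the threshold, and the call was lost in 8 of the 12 alternative settings, among them the replicate block (edgeR adjusted p = 0.0685), DESeq2 (adjusted p = 0.0835) and leaving out untreated replicate 2 or 3 or r-CRMP2 replicate 1 or 3 (edgeR adjusted p between 0.104 and 0.153).

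MRPS31 (chromosome 13, 41303432 to 41345347), a mitochondria-specific protein of the small subunit head, had 7.12, 7.58 and 7.86 CPM in the untreated libraries and 5.10, 5.46 and 5.01 CPM in the r-CRMP2 libraries. The groups were well apart at this low level, with a log2 fold change of -0.54 (SE 0.06, edgeR adjusted p = 0.00208). Its pseudogene rows MRPS31P4 and MRPS31P5 held 31.3% and 37.5% as many counts as MRPS31 and had log2 fold changes of -0.00 and -0.18, so reads shared with them leave the size of its change uncertain.

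MRPS28 (chromosome 8, 80831095 to 80942506) had 20.03, 19.1 and 18.3 CPM in the untreated libraries and 13.2, 15.1 and 11.6 CPM in the r-CRMP2 libraries, and MRPS28 gave a log2 fold change of -0.53 (SE 0.12, edgeR adjusted p = 0.000221). MRPS11 (chromosome 15, 89010684 to 89023998), a conserved protein of the platform that holds the mRNA in place, had 34.01, 38.3 and 39.6 CPM in the untreated libraries and 25.6, 30.1 and 24.5 CPM in the r-CRMP2 libraries. Neither gene's groups overlapped. For MRPS11 the change was a log2 fold change of -0.48 (SE 0.11, edgeR adjusted p = 0.00012). The other lower MRPS genes were MRPS7, MRPS9, MRPS12, MRPS16, MRPS17 and MRPS21, with log2 fold changes between -0.45 (MRPS17) and -0.24 (MRPS9). MRPS9 missed the threshold without untreated replicate 3 or r-CRMP2 replicate 3 (edgeR adjusted p between 0.0583 and 0.0791) and in DESeq2. MRPS12, a conserved protein of the decoding centre, was among them at -0.29.

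MRPS6 (chromosome 21, 35445823 to 35515334), a conserved protein of the platform, rose by more than any other member. It had 19.8, 18.4 and 17.4 CPM in the untreated libraries and 29.8, 33.1 and 31.7 CPM in the r-CRMP2 libraries, and the lowest treated library was well above the highest untreated one. MRPS6 rose from 18.5 ± 1.23 to 31.5 ± 1.66 CPM (SD, n = 3 each), a log2 fold change of 0.76 (SE 0.07, edgeR adjusted p = 2.43e-07), and the rise remained with library size alone (log2 fold change 0.45). The SLC5A3 gene, which encodes a myo-inositol transporter and shares its first exon with MRPS6 on the same strand, had a log2 fold change of 1.16 (SE 0.13), and a second transcript within MRPS6 had one of 0.93. Reads of the shared sequence cannot be told apart, so the value for MRPS6 may hold reads of these neighbours.

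MRPS30 (chromosome 5, 44809027 to 44815616) had 100.1, 99.7 and 103 CPM in the untreated libraries and 126, 136 and 124 CPM in the r-CRMP2 libraries. Every treated library was above every untreated one, with a log2 fold change of 0.35 (SE 0.04, edgeR adjusted p = 8.42e-05). Like MRPS18A it belongs to the large subunit by structure, so 2 of the named MRPS genes with clear changes in opposite directions are parts of the other subunit. MRPS24 (chromosome 7, 43906157 to 43909145), a conserved protein at the mRNA entry, had 65.7, 66.5 and 71.2 CPM in the untreated libraries and 72.5, 93.6 and 72.7 CPM in the r-CRMP2 libraries, where r-CRMP2 replicate 2 was far above the other treated libraries. It had a log2 fold change of 0.23 (SE 0.13, edgeR adjusted p = 0.0258), and the call was lost without that library (log2 fold change 0.11, edgeR adjusted p = 0.153) and without untreated replicate 1 or 2 (edgeR adjusted p = 0.0805 and 0.0839). All of its span is also annotated as the readthrough gene URGCP-MRPS24, which had a log2 fold change of 0.31.

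**Figure D2:**
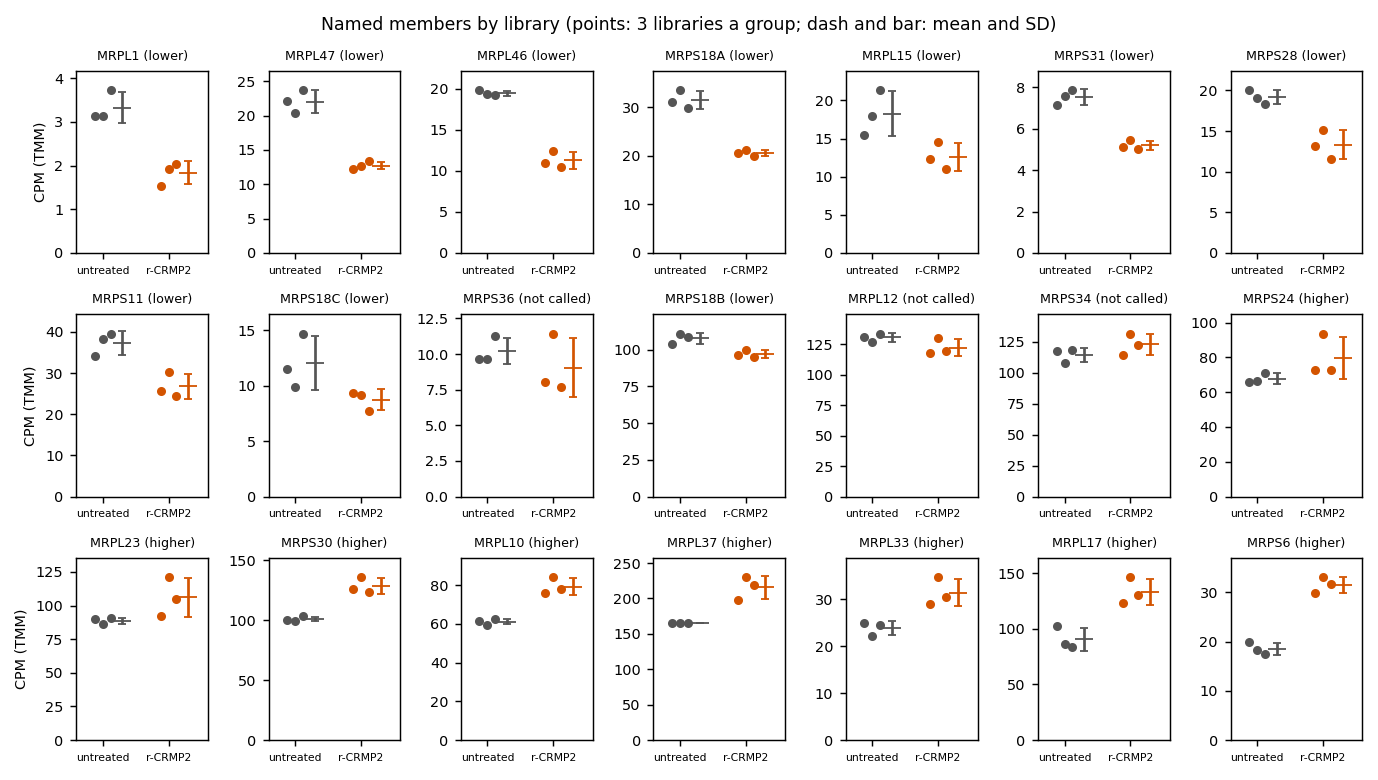
TMM-scaled CPM (y axis, from 0) in each library for the 21 named genes, ordered from the deepest fall to the largest rise. Points are the 3 libraries of a group, and the dash with its bar is the mean and SD. r-CRMP2 replicate 2 is the highest treated point in most of the 21 genes, among them MRPS24 and MRPL23. No treated point reaches an untreated one in MRPL47, MRPL46 or MRPS18A.

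Levels were compared between genes per length, as deposited TPM. MRPL23, a conserved protein at the tunnel exit, had the highest mean TPM over the 6 libraries, at 292 ± 5.79 in untreated and 277 ± 24.9 in r-CRMP2 libraries (SD, n = 3 each), and passed the test upward (log2 fold change 0.26, SE 0.12, edgeR adjusted p = 0.00951). MRPL12, whose protein forms the flexible L7/L12 stalk itself, followed at 313 ± 7.55 and 234 ± 3.19 TPM. As CPM, MRPL12 had 131, 127 and 134 CPM in the untreated libraries and 118, 129.8 and 119 CPM in the r-CRMP2 libraries. Its groups overlapped and it did not pass (log2 fold change -0.09, edgeR adjusted p = 0.206). MRPS34, a mitochondria-specific protein, led the small subunit at 273 ± 11.4 and 233 ± 5.39 TPM, and did not pass (log2 fold change 0.10, edgeR adjusted p = 0.212).

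Over the 78 genes, the median TPM was 67.5 for those higher, 36.2 for those lower and 58.7 for those that did not pass. Taken over genes, which do not replicate each other, the log2 fold change had a Pearson correlation of 0.48 and a Spearman correlation of 0.43 with the log2 of the mean CPM, where all 16222 genes had 0.23 and 0.28. Both quantities come from the same 6 libraries. With gene length the correlations of the 78 genes were 0.10 and 0.08.

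MRPS36, which keeps its name but is now known as a component of the 2-oxoglutarate dehydrogenase complex rather than of the ribosome, had 9.67, 9.66 and 11.3 CPM in the untreated libraries and 8.004, 11.4 and 7.71 CPM in the r-CRMP2 libraries. Its groups overlapped through r-CRMP2 replicate 2, and it did not pass the test (log2 fold change -0.18, SE 0.19, edgeR adjusted p = 0.296). Without that library it passed (log2 fold change -0.37, edgeR adjusted p = 0.0245). Counting MRPS30 and MRPS18A with the large subunit and leaving MRPS36 out gave 12 higher and 16 lower of 51 large-subunit genes (23.5% and 31.4%). In the small subunit 2 were higher and 11 lower of 26 (7.69% and 42.3%). Of all genes tested, 28.2% were higher and 30.1% lower, so the large-subunit shares lay near those of all genes.

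Grouped by evolutionary origin, the 17 small-subunit proteins with a bacterial counterpart held 10 of the 12 lower MRPS genes. Another 2 of the 17 were higher, and the median log2 fold change of the 17 was -0.24. Among the 9 small-subunit proteins that are specific to mitochondria, 1 was lower (MRPS31), none higher, and the median was 0.05. In the large subunit, 8 of 30 genes with a bacterial counterpart were lower and 5 higher (median 0.05), and 7 of 19 mitochondria-specific genes were lower and 6 higher (median 0.01). In the order given, 58.8%, 11.1%, 26.7% and 36.8% of these groups were lower, and 11.8%, 0%, 16.7% and 31.6% higher. Of all genes tested, 30.1% were lower and 28.2% higher. The difference between these groups was not tested.

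By position in the large subunit, the 5 genes of the L7/L12 stalk and its base (MRPL10, MRPL11, MRPL12, MRPL53 and MRPL54) included 2 that were higher, MRPL10 and MRPL54, and none lower. Of 6 genes of the central protuberance, MRPL38, MRPL40 and MRPL46 were lower and none was higher, with a median of -0.21. MRPL40 missed the threshold without r-CRMP2 replicate 3 (edgeR adjusted p = 0.055). The 9 genes around the exit tunnel went both ways, with MRPL17, MRPL23 and MRPL44 higher and MRPL22, MRPL47 and MRPL50 lower. Among all genes tested, 28.2% were higher and 30.1% lower. With 5, 6 and 9 genes these counts are a description, and the difference between the positions was not tested. The groups of MRPL22 overlapped, and its call was lost in 7 of the 12 alternative settings, among them the replicate block, DESeq2 and leaving out untreated replicate 1 or 3 or r-CRMP2 replicate 1 or 3 (edgeR adjusted p between 0.085 and 0.189). MRPL45, which tethers the ribosome to the inner membrane, did not pass the test at 0.04.

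Summed over genes, the subunits kept nearly the same proportion. MRPL genes summed to 4032, 4020.0 and 4187 TPM in the untreated libraries and to 3246, 3419 and 3267 TPM in the r-CRMP2 libraries, and MRPS genes to 2231, 2249.9 and 2361 against 1807, 1854 and 1748 TPM. All treated sums lay below all untreated ones on this library-relative scale, and together the 78 genes went from 0.636% ± 0.0163 to 0.511% ± 0.0139 of all TPM (SD, n = 3 each). After TMM scaling the sums were 2125 ± 49.99 and 2223 ± 156 CPM for MRPL and 1446 ± 39.1 and 1425 ± 83.0 CPM for MRPS, with overlapping groups for both subunits. Among treated libraries, r-CRMP2 replicate 2 had the highest sums, at 2400 CPM for MRPL and 1521 CPM for MRPS. r-CRMP2 replicates 1 and 3 had 2102 and 2167 CPM for MRPL, and 1378 and 1377 CPM for MRPS.

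The ratio of summed MRPL to summed MRPS TPM was 1.81, 1.79 and 1.77 in untreated libraries and 1.80, 1.84 and 1.87 in r-CRMP2 libraries, so the groups overlapped. The ratio of the group means was 1.03. With the subunits by structure, the TPM ratio was 2.11, 2.10 and 2.07 in untreated libraries and 2.14, 2.18 and 2.21 in r-CRMP2 libraries. Those groups did not overlap, and the ratio of their means was 1.04. Computed from CPM, where longer transcripts weigh more, the ratio by gene name was 1.49, 1.46 and 1.45 against 1.53, 1.58 and 1.57. It was without overlap, with a ratio of means of 1.06. A ratio within a library does not depend on its scaling.

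**Figure D3:**
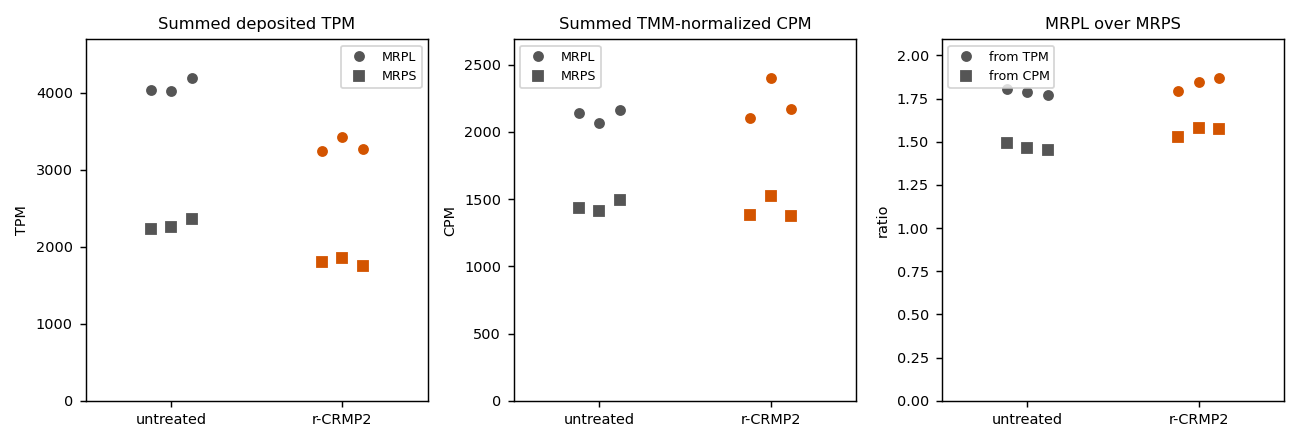
Sums over the 49 MRPL genes (circles) and the 29 MRPS genes (squares) in each library, as deposited TPM (left) and as TMM-normalized CPM (middle), and the ratio of MRPL to MRPS sums from both units (right, circles from TPM, squares from CPM), all axes starting at 0. In TPM all treated sums lie below all untreated sums of the same subunit, in CPM the groups overlap, and the ratios stay between 1.45 and 1.87.

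Of 5 mitoribosomal proteins whose symbols fall outside the naming rule, DAP3 (log2 fold change 0.27, SE 0.05, edgeR adjusted p = 0.00108) and GADD45GIP1 (0.29, SE 0.08, edgeR adjusted p = 0.00136) were higher, and AURKAIP1, CHCHD1 and PTCD3 did not pass. The 2 higher genes were 40.0% of the 5, against 28.2% of all genes tested. With library size alone the values of DAP3 and GADD45GIP1 turned to -0.04 and -0.03.

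The cytosolic ribosomal proteins build the ribosomes outside the organelle. All 77 tested were higher, with a median log2 fold change of 0.55, and 66 of them were still higher with library size alone (median 0.24). No mitochondrial ribosomal gene but MRPS6 and MRPL17 exceeded that TMM median. The nuclear-encoded genes taken by symbol for the respiratory chain and the ATP synthase had a median of 0.03, with 15 of 78 higher and 8 lower. These were 19.2% and 10.3%, against 28.2% and 30.1% of all genes tested. The list held the SDH genes of the respiratory chain, and the symbols also took in ATP5S and ATP5SL. These 2 counts moved with single libraries: 7, 9 and 8 were higher without untreated replicate 2, untreated replicate 3 and r-CRMP2 replicate 2, and 4, 20 and 5 were lower without untreated replicate 3, r-CRMP2 replicate 2 and r-CRMP2 replicate 3.

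Of 29 factors that assemble the mitochondrial ribosome or modify its rRNA, 16 were lower and 4 higher, with a median log2 fold change of -0.23. These were 55.2% and 13.8%, against 30.1% and 28.2% of all genes tested. DDX28, an RNA helicase needed for large-subunit assembly, went from 20.3 ± 1.93 to 3.88 ± 0.651 CPM (SD, n = 3 each), a log2 fold change of -2.38 (SE 0.15, edgeR adjusted p = 2.65e-11). MRM1, which methylates the large-subunit rRNA, had a log2 fold change of -1.25 (SE 0.13, edgeR adjusted p = 2.09e-07). METTL17, an assembly factor, rose by 0.67 (SE 0.07, edgeR adjusted p = 2.36e-07), and TFB1M, which dimethylates the small-subunit rRNA, by 0.53 (SE 0.10, edgeR adjusted p = 3.74e-05). NOA1 (0.34, SE 0.06, edgeR adjusted p = 0.000234) and RPUSD4 (0.17, SE 0.04, edgeR adjusted p = 0.0386) were the other higher genes. DDX28, MRM1, METTL17 and TFB1M were named by the size of their changes, and a split of the factors by subunit was not tested.

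Of 17 mitochondrial translation factors, 7 were lower and 1 higher (41.2% and 5.88%, against 30.1% and 28.2% of all genes tested). TACO1, a translational activator of COX1, had a log2 fold change of -1.03 (SE 0.10, edgeR adjusted p = 2.76e-08), and TSFM, the exchange factor of the elongation factor TUFM, one of -0.75 (SE 0.03, edgeR adjusted p = 1.55e-07). TUFM itself did not pass (-0.03). The gene that was higher was LRPPRC, which stabilises mitochondrial mRNAs, at 0.32 (SE 0.04, edgeR adjusted p = 0.000162), and it was at 0.01 with library size alone.

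Among 17 regulators of mitochondrial biogenesis, 7 were lower and 4 higher (41.2% and 23.5%, against 30.1% and 28.2% of all genes tested). MYC (log2 fold change 0.69, SE 0.05, edgeR adjusted p = 1.83e-08) and YY1 (0.54, SE 0.05, edgeR adjusted p = 4.29e-07), both transcription factors of growth and mitochondrial genes, rose. TWNK, the helicase of mitochondrial DNA, had -0.85 (SE 0.13, edgeR adjusted p = 1.56e-07) and PPARGC1B, a coactivator of mitochondrial genes, -0.70 (SE 0.18, edgeR adjusted p = 0.000103).

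**Figure D4:**
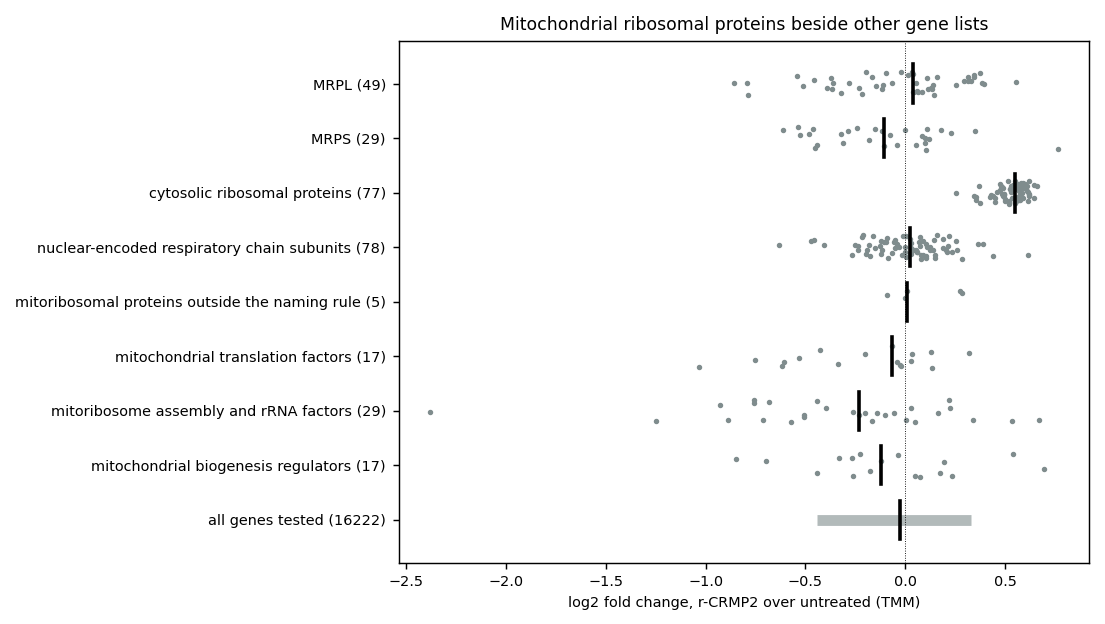
Log2 fold change (x axis, r-CRMP2 over untreated, TMM) of every tested gene in the 2 subunit groups and 6 other lists, 1 point a gene, with a black line at the median. For all 16222 genes the grey bar spans the middle part from -0.44 to 0.33; the cytosolic ribosomal proteins lie in a tight cluster around 0.55, while both subunit groups spread to either side of 0.

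Of the 78 genes, 24 start within 1000 bases of a protein-coding gene that runs the opposite way (a head-to-head pair by the deposited coordinates), which makes 23 pairs because MRPL46 and MRPS11 face each other. Both genes were tested in 22 pairs and both passed the test in 9 (40.9%). In 7 of these (77.8%) the 2 genes went the same way, 6 down and 1 up. Over all 829 head-to-head pairs of tested protein-coding genes, found by the same distance, both genes passed in 324 (39.1%), and 190 of those (58.6%) went the same way, 118 down and 72 up. With 9 pairs the shares are a description, and the difference was not tested. The pairing of MRPL46 with MRPS11 joins a large-subunit and a small-subunit gene that start 51 bases apart and were both lower.

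In size the neighbours often differed from the member. MRPS18B (log2 fold change -0.15) faces PPP1R10, a regulator of protein phosphatase 1, which had -3.66 (SE 0.23). MRPL50 (-0.46) faces ZNF189 (-2.35, SE 0.17), and MRPL40 (-0.28) faces HIRA, a histone chaperone (-1.30, SE 0.17). In 2 pairs the directions were opposite: MRPL43 was higher (0.32) 17 bases from TWNK, which was lower (-0.85), and MRPL49 was lower (-0.22) beside FAU, a gene of the cytosolic ribosome that was higher (0.33). The groups of MRPL49 overlapped, and its call was lost in 6 of the 12 alternative settings, among them DESeq2 and leaving out untreated replicate 1 or 3 or r-CRMP2 replicate 1 or 3 (edgeR adjusted p between 0.0899 and 0.202). MRPL47 (-0.79) starts 141 bases from NDUFB5, a subunit of respiratory complex I that did not pass (0.14).

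**Figure D5:**
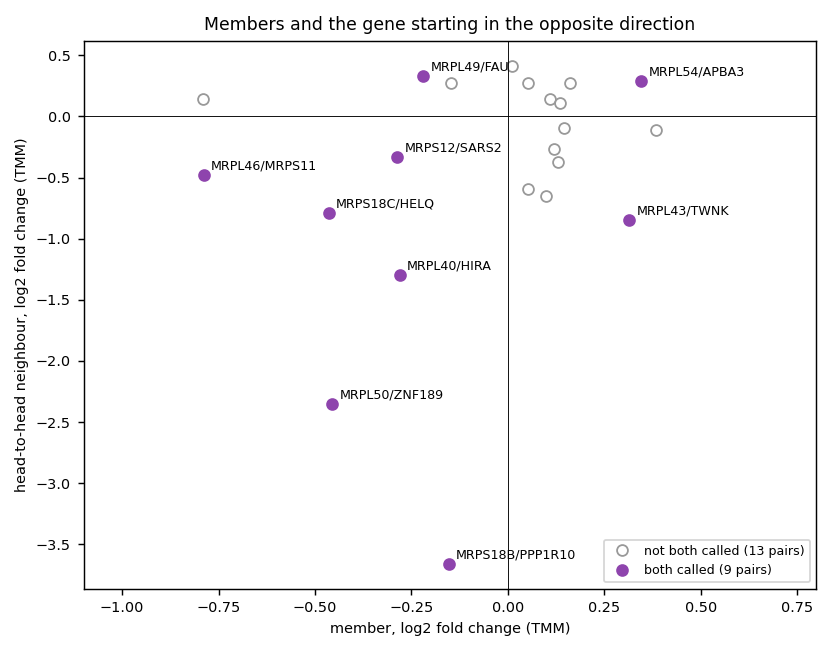
Log2 fold change of a mitochondrial ribosomal gene (x axis) and of the protein-coding gene that starts within 1000 bases in the opposite direction (y axis), 1 point for each of 22 pairs. Filled points are the 9 pairs in which both genes passed the test; 6 of them are below 0 on both axes, with MRPS18B and PPP1R10 the farthest apart in size.

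Sequences around the starts of the genes were searched for the letters of factors known at mitochondrial and growth genes. RefSeq promoters (GRCh38.p14, 250 bases before to 50 bases after the start) were found for 69 of the 78 genes; MRPL2, MRPL10, MRPL13, MRPL15, MRPL21, MRPL23, MRPL35, MRPS28 and MRPS36 were not matched. Searched on both strands, CCGGAAG, the core letters bound by ETS factors such as GABPA, stood in 29 of 69 (42.0%), against 10.7% of 27305 promoters and 14.2% of 15842 promoters of protein-coding genes. AAGATGGC, the core letters bound by YY1, stood in 20 of 69 (28.99%), against 3.03% and 3.91%. In 15 of these 20 a match began at or after the start, so within the transcript. In 14 of them it lay in the sense direction, beginning between base 7 and base 24 of the transcript. Both motifs occurred in 8 promoters.

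Neither motif stood with 1 direction alone. CCGGAAG was in 4 of 12 promoters of genes that were higher, 11 of 25 that were lower and 14 of 32 that did not pass. AAGATGGC was in 4 of 12, 11 of 25 and 5 of 32. Among the other letters searched, ACGTG, the hypoxia response core, stood in 27.5% of the members' promoters, 21.6% of all and 23.7% of protein-coding ones, and CACGTG, the E box bound by MYC, which contains it, in 8.70%, 7.43% and 8.88%. GCGCATGCG, an NRF1 core, was in 3 of 69 (4.35%, against 2.10% of all and 2.76% of protein-coding promoters), those of MRPL17, MRPL22 and MRPS18C. TATAAA was in 2 of 69 (2.899%, against 11.95% of all and 9.63% of protein-coding promoters). A match is a description of the letters and does not show that a factor bound there. GABPA itself had a log2 fold change of -0.27 (SE 0.17, edgeR adjusted p = 0.0455), with overlapping groups. YY1 had one of 0.54 (SE 0.05, edgeR adjusted p = 4.29e-07), without overlap.

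The ETS letters nearest to the start of the named genes are shown with 10 bases on either side, for genes that were higher and genes that were lower side by side. All are from GRCh38.p14, 5' to 3' on the strand that carries the motif, with CCGGAAG in capitals. MRPL33 (higher) has it 8 bases before the start (chr2:27771701-27771727, plus strand). MRPL47, MRPS18A and MRPS31 (lower) have it 39, 31 and 32 bases before (chr3:179604661-179604687, chr6:43687806-43687832 and chr13:40771206-40771232, all minus strand). MRPS18C (lower) has it 222 bases before (chr4:83455826-83455852, plus strand), and MRPS34 (not called) 19 bases before, against the direction of the gene (chr16:1773137-1773163, plus strand), where the stretch shown holds the letters in 2 places.
MRPL33: gggccgtgccCCGGAAGcagttgttgt
MRPL47: gcttgagacgCCGGAAGtgacgctatc
MRPS18A: gcgctacgttCCGGAAGcggaaatgga
MRPS31: aggcgccaggCCGGAAGcggaagagag
MRPS18C: ggctcgcggaCCGGAAGcacgcataaa
MRPS34: agcggtccggCCGGAAGtcaCCGGAAG

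The YY1 letters of the named genes are shown in the same way, with AAGATGGC in capitals. MRPS24 and MRPS30 (higher) have it from base 20 and base 14 of the transcript (chr7:43869481-43869508, minus strand, and chr5:44808950-44808977, plus strand). MRPL46, MRPS18A and MRPS18B (lower) have it from base 9, 10 and 24 (chr15:88467363-88467390 and chr6:43687765-43687792, minus strand, and chr6:30617853-30617880, plus strand). In these 5 genes the motif runs with the gene. In MRPL47 (lower) it lies 92 bases before the start and against the gene (chr3:179604713-179604740, plus strand).
MRPS24: cgcttggcccAAGATGGCggcctccgtg
MRPS30: atcgcgggcaAAGATGGCggcggccagg
MRPL46: gggagaacgaAAGATGGCggcgcccgta
MRPS18A: taggtttttgAAGATGGCggccctcaag
MRPS18B: ggcgtacgtcAAGATGGCggcgtctgta
MRPL47: gccctcacttAAGATGGCcacatcctgc

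Upstream of MRPL17, the large-subunit gene that rose most, the bases free of annotated exons (chr11:6683402-6683590, minus strand, 189 bases) hold the palindromic NRF1 letters and, after a short gap, the hypoxia response core on the opposite strand, both in capitals. The stretch between the facing genes MRPL46 and MRPS11 (chr15:88467420-88467452, 33 bases, given on the minus strand, which is that of MRPL46) holds none of the letters searched and is in lower case throughout.
MRPL17: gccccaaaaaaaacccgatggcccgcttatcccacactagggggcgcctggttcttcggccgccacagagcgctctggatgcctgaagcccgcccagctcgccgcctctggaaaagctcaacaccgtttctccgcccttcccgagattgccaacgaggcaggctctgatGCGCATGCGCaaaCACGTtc
MRPL46: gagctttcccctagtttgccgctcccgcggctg

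Overlaps with other genes limit some of these values. The span of 27 of the 78 genes overlaps another listed gene, and in 13 of them a protein-coding one. Of 40 pseudogene rows named for members, 3 held above 5% of their parent's counts, those of MRPL45 (9.72%) and MRPS31. LOC148413, an RNA on the other strand of MRPL20 (-0.39), had a log2 fold change of -1.97, and NR2C2, which overlaps MRPS25 (-0.00) on the other strand, one of -0.32. The kit did not mark strand, so reads of the bases that such pairs share cannot be told apart.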

How the data were processed

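Polyadenylated RNA of 3 untreated and 3 r-CRMP2-treated A2780 libraries was sequenced after preparation with a kit that does not mark strand. The authors deposited, for each library, unnormalized counts of reads on 44591 gene rows, and TPM values that differed by at most 4.72e-06 from the count over the gene length, rescaled. The submitters' processing notes name hg19, FastQC, HISAT2 and DESeq2; versions, the counting tool, the annotation and the use of strand are not given in the sources used here. Each library held between 21888530 and 25711353 counts, which limits precision for low genes.

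The deposited counts were tested over all genes with the quasi-likelihood test of edgeR 4.0.16 (R 4.3.3, limma 3.58.1), with TMM normalization, edgeR's filter on low counts and Benjamini-Hochberg adjustment (threshold 0.05). Groups came from the labels and entered as the only term. Standard errors are from the replicate spread of log2 CPM (prior count 2). Script steps were tested on simulated data. Named genes were the 4 largest rises and falls of each subunit among those past the threshold with no overlap between groups, the 3 with the highest mean TPM of each subunit, MRPS18A, MRPS18B, MRPS18C, MRPS30 and MRPS36, and in each of 4 hand-written lists the 2 largest changes in each direction; others are named for sharing reads, a start region or a position, after their values were seen. The members and lists were chosen with earlier results of these data known. The cytosolic ribosomal protein and respiratory chain lists were taken by symbol, and 27 row names that had been turned into dates were left as listed. Motifs were searched in RefSeq promoters, with the first listed start of each gene.

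Libraries with the same number, after subtracting the means of their groups, correlated across genes at -0.02, 0.0038 and -0.03, so the replicate numbers were not used as pairs. Alternatives were RLE factors, scaling by library size alone, DESeq2 1.42.0, no filter, at least 10 counts in every library, a fold change threshold, subunits by structure, the replicate block and leaving out each library. Those of the summed ratio and of the context lists were chosen after seeing the data.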

Additional observations from a re-analysis of the deposited data

How the results depend on the processing

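With library size alone, 2 members were higher and 58 lower (MRPL 1 and 34, MRPS 1 and 24), the subunit medians of the log2 fold change were -0.27 for MRPL and -0.42 for MRPS, and the share of calls that were higher went from 34.1% to 3.33%. On that scale 5 named genes changed sign: DAP3 (-0.037), GADD45GIP1 (-0.026), MRPL23 (-0.057), MRPS24 (-0.083) and MRPS34 (-0.21). With a log2 fold change past 1 required as well, 0 members of either subunit were called in either direction. The MRPL to MRPS ratio, r-CRMP2 over untreated, was 1.03 from TPM, 1.04 from TPM with the subunits by structure and 1.06 from CPM. These comparisons were added after seeing the data. The causes were not tested.

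Leaving out 1 library at a time gave 12 to 15 members higher and 20 to 29 lower, with 10 to 11 and 11 to 16 for MRPL and 2 to 4 and 9 to 13 for MRPS. The medians lay between -0.02 and 0.09 for MRPL and between -0.14 and -0.07 for MRPS, and the ratio between 1.02 and 1.04. Of the 27 lower calls, 20 held in all 12 alternatives that keep the threshold, and of the 14 higher calls 2 did. With library size alone set aside, 12 of the 14 higher calls and 20 of the 27 lower calls held in every alternative. With the replicate block, 14 members were higher and 25 lower, the calls of MRPL22 and MRPS18B being lost. Same-numbered libraries did not deviate together, so the block does not stand for a pairing.

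Counts of the context lists moved by over 1.5 times in 19 of 144 values, 9 of them with library size alone and 10 with other settings, for example from 8 to 61 respiratory chain subunits lower. Depth limits MRPL1 most, at 33 counts in its shallowest library. r-CRMP2 replicate 3, with the fewest genes counted, entered the main test, and without it 13 members were higher and 20 lower.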
